A study of Mus musculus with 3 samples.

Results

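The hearts of mice with abdominal sepsis were compared with and without esmolol in 1 of the 3 contrasts of a 2-colour microarray series, and that contrast is described here across its genes. Its members are all probes that name 1 gene, 27828 of them with a value, collapsed by the median into 17339 of the 19532 genes on the array. The other contrasts, esmolol in mice given lipopolysaccharide (LPS) and esmolol in mice without sepsis, are used only for side-by-side values. All animals were C57BL/6 mice. The first group had cecal ligature and perforation (CLP) and no drug. The second had CLP and esmolol at 20 mg/kg/h as a continuous infusion, and a right jugular venous catheter is named for the esmolol animals alone. The LPS groups received it by intraperitoneal injection, with or without the same infusion, and the remaining groups were untreated controls and controls given esmolol. The sources used here give neither the age of the animals nor the time of sampling, nor whether the merged replicates were single animals or pools. RNA came from 30 mg of whole heart, and the series describes 6 groups of 8 animals.

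The table holds 1 value per probe for the whole contrast, which per the labels merges 4 replicates over dye swaps. The spread between replicates was not analysed here, so nothing below was tested and no value has an error across animals. Values were read as log2 ratios, where 1 is a doubling. The title of the contrast names the undrugged CLP hearts first, whereas the design text has treated animals hybridized against untreated ones. The direction is therefore not settled. The sign was turned after the title, and "higher" below means higher with esmolol if the values follow that title. If they do not, every direction reverses and the sizes stay as given. In whole tissue, fewer cells of a type and less RNA per cell cannot be told apart.

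In the CLP model, gut bacteria leak from the perforated cecum and cause peritonitis, and the systemic response that follows reaches the heart as circulating cytokines, activated endothelium and arriving leukocytes. Esmolol, a drug of brief action, blocks beta-1 adrenergic receptors, through which noradrenaline and adrenaline raise heart rate and contractility by way of cyclic AMP and protein kinase A. Immune and endothelial cells also carry adrenergic receptors, mainly of the beta-2 type, and the catecholamine response of sepsis acts on them as well.

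Most genes had a ratio near 0. The middle 95% of genes lay between -0.24 and 0.33, the median was -0.0049 and the SD over genes was 0.16. The threshold for calling a gene higher or lower was 1.5-fold, a log2 ratio of 0.58 or more in size. By it 142 genes were higher, 0.819% of those measured, and 23 were lower, 0.133%, together 0.952%. The long tail was on the higher side alone. From 2-fold on, 43 genes were higher and 1 was lower, and 11 genes were higher by 4-fold or more. At 1.2-fold the counts were 680 and 358, so the asymmetry was smaller among small ratios. For a measure of error within the table, the SD between probes of 1 gene was 0.10, pooled over 7105 genes with 2 or more probes. Olfactory receptor genes, which are not known as abundant in heart, had an SD of 0.12 over 608 genes, and 1 of them, Olfr1126 (0.75), was past 1.5-fold (0.164%).

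**Figure D1:**
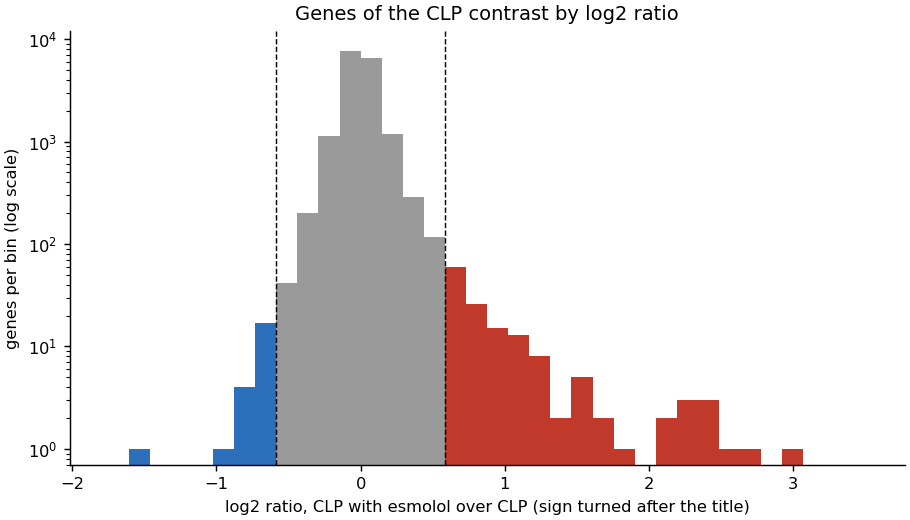
Number of genes per bin (y axis, log scale) by log2 ratio of CLP hearts with esmolol over CLP hearts (x axis, sign turned after the title); dashed lines mark 1.5-fold, with the 142 higher genes in red and the 23 lower genes in blue. The tail reaches 2.94 on the higher side and -1.47 on the lower side.

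Agreement between probes bears on how firmly a single gene can be read. Of the 142 higher genes 98 had 1 measured probe. Of the 44 with more, 43 had all probes above 0 and 21 had all of them past 1.5-fold. The exception was Car3, a carbonic anhydrase of fat and muscle, with 1 probe at 1.47 and the other at -0.01. Probes also lay far apart for Tmem163 (0.11 and 1.39), Fgf23, a phosphate-regulating hormone (0.18 and 1.24), and the cytokine Il1a (0.36 and 1.33). Probes lay close together for the prostaglandin synthase Ptgs2 (1.51 and 1.53), Saa1 (0.99 and 1.00) and the light chain gene Myl1 (0.85 and 0.88). Of the 23 lower genes 16 had 1 probe, and in the other 7 all probes lay below 0.

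The 30 highest genes fell between 2.94 and 1.16. Of them 24 belonged to lists of functions or cell types used here, which hold 1093 of the 17339 measured genes. The lists were chosen with earlier results of these data known, so this count is not an independent result. The first was Hamp (2.94, 7.66-fold), which encodes hepcidin, the hormone that locks iron in cells and that interleukin-6 induces. Bmp10 (2.69, 6.46-fold), a growth factor of the atrial wall, and Sele (2.54, 5.82-fold), the endothelial selectin that slows passing leukocytes, followed. Below the 10 highest stood Dkk3 (2.11), a secreted protein enriched in atria, and Chil1 (1.84), a chitinase-like protein of activated macrophages and neutrophils. Selp (1.64), the selectin of platelets and endothelium, Myl4 (1.55), an atrial light chain, and Mybphl (1.38), a myosin-binding protein of atria, were next to inflammatory genes in rank. Scd1 (1.35), a fatty acid desaturase, and Sfrp5 (1.27), a secreted Wnt antagonist, are genes of other functions at the same height. Cybb (1.28, probes at 0.81 and 1.74) encodes the catalytic subunit of the phagocyte oxidase. Acp5 (1.24), an acid phosphatase of macrophages and osteoclasts, Igfbpl1 (1.19), Wfdc17 (1.19), a macrophage-expressed protein of the whey acidic protein family, Clec4a1 (1.18), a lectin of myeloid cells, and Hpgd (1.16), which inactivates prostaglandins, closed the 30.

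**Figure D2:**
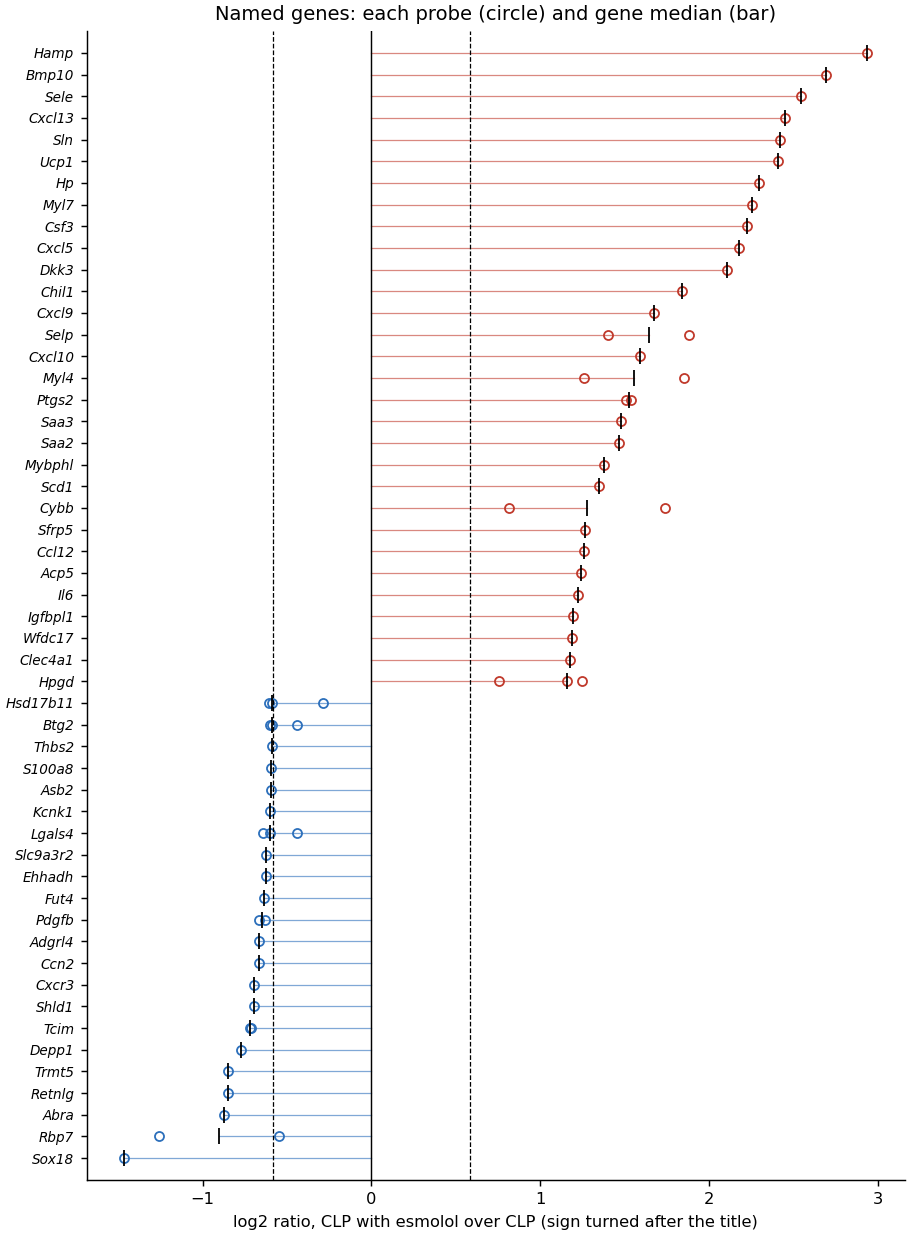
Log2 ratio of CLP hearts with esmolol over CLP hearts (x axis, sign turned after the title) for the 30 highest genes in red and 22 lower genes in blue; open circles are single probes, black bars the gene medians and dashed lines 1.5-fold. Most genes rest on 1 probe, and several exist for example for Selp (1.40 and 1.88) and Rbp7 (-0.55 and -1.26). The rule for naming kept only genes with all probes on the same side of 0, so that agreement is by construction.

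Chemokines, the secreted proteins that direct leukocyte traffic, were the ligands with the most members past the threshold. Of 16 measured CXC, XC and CX3C ligands 6 were higher and none lower (median 0.22). Over all genes 0.819% were higher and 0.133% lower, shares to be read beside this count and those of the lists below. Cxcl13, which attracts B cells, stood at 2.45. The neutrophil attractants Cxcl5 (2.18), Cxcl3 (1.07) and Cxcl2 (1.03) were higher, whereas Cxcl1 of the same subgroup was at 0.39. The interferon-induced Cxcl9 (1.67) and Cxcl10 (1.59), which attract activated T cells, were higher, and Cxcl11 was at 0.21. Cxcl12, a constitutive stromal chemokine, was the lowest member (-0.44). Of 18 measured CC chemokines 6 were higher and none lower (median 0.30). The monocyte attractants Ccl12 (1.26) and Ccl7 (0.78, probes at 0.45 and 1.11), the macrophage inflammatory proteins Ccl4 (0.96) and Ccl3 (0.95), and the eosinophil attractant Ccl11 (0.59) were past 1.5-fold. Ccl2, the main monocyte attractant, lay almost on the threshold (0.58). Ccl21a, Ccl24, Ccl25 and Ccl28, constitutive or mucosal chemokines, lay between -0.09 and -0.02.

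The receptors of these ligands lay closer to 0. Of 18 measured chemokine receptors none was higher, 1 was lower and the median was -0.02. The lower one was Cxcr3 (-0.70), the receptor of Cxcl9 and Cxcl10, and Cxcr2, the receptor of the neutrophil attractants, was at -0.0045. Ackr1 (0.41), a scavenger receptor of venules, was highest. Ccr2, Cxcr1, Cxcr5 and Cxcr6 had blank values. Of all genes 0.952% were past 1.5-fold, so a count of 0 sets no list here or below apart. Among cytokine receptors 0 of 27 were past it and the median was 0.05. Il1r1, the signalling receptor of interleukin-1, was highest (0.46) and Il1r2, its decoy, lowest (-0.50). Of 24 members of the TNF superfamily and its receptors 0 were past 1.5-fold (median 0.04). Tnf itself stood highest (0.49) and Tnfrsf4, a costimulatory receptor of T cells, lowest (-0.41).

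Among interleukins and colony-stimulating factors 6 of 28 were higher and none lower, but the median was 0.08, so the list held few large ratios among many small ones. Csf3, which drives neutrophil production, was at 2.22 and Il6 at 1.22. The interleukin-1 genes Il1a and Il1b were both at 0.84, and their natural antagonist Il1rn was at 0.68. Csf1, the growth factor of macrophages, was at 0.65, while Csf2 (0.36) stayed under the threshold. Il10, an anti-inflammatory cytokine, was lowest (-0.41). Il5, which supports eosinophils, was next lowest (-0.23), followed by Il23a (-0.22).

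Intracellular signalling genes came next. In the SOCS and JAK-STAT list 3 of 21 were higher, all of them induced by cytokine signalling: the feedback inhibitors Socs3 (0.72) and Socs1 (0.60) and the transcription factor Stat2 (0.59). Jak1 (-0.008) and Stat3 (0.0017), constitutive parts of the same cascade, lay at 0. In the NF-kB list 1 of 20 was higher, yet 18 lay above 0 and the median was 0.20. That member was Tnfaip3 (0.80), a deubiquitinase that ends NF-kB signalling. The kinase Ikbke (0.51), the RNase Zc3h12a (0.48) and the inhibitor Nfkbia (0.42) were the next highest. Of 24 genes of Toll-like receptors and LPS sensing 2 were higher, the macrophage lectin Clec4e (0.73) and the LPS-binding protein gene Lbp (0.65). The receptor Tlr4 (-0.07) and its coreceptor Cd14 (-0.04) were near 0. Of 10 inflammasome genes 0 were past 1.5-fold, with a range of -0.14 to 0.16.

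Interferon-responsive genes lay mostly above 0, and most stayed under the threshold, past which 0.819% of all genes were higher. Of 25 antiviral genes 3 were higher, Ifit1 (0.81), Ifi27l2a (0.69) and Rtp4 (0.65), 22 lay above 0 and the median was 0.13. All 8 measured interferon regulatory factors lay above 0, from Irf2 (0.0018) to Irf7 (0.33). Among the guanylate-binding proteins and immunity-related GTPases, which attack intracellular pathogens, 3 of 15 were higher: Gbp2 (1.03), Gbp3 (0.85) and Igtp (0.65). Their list had the highest median among the interferon lists (0.35). For class I antigen presentation none of 17 was past 1.5-fold, but 16 lay above 0 (median 0.16), with the peptide transporter Tap1 highest (0.53). Of 9 class II genes 7 lay above 0, and H2-Aa (0.50) and Cd74 (0.41) were highest.

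**Figure D3:**
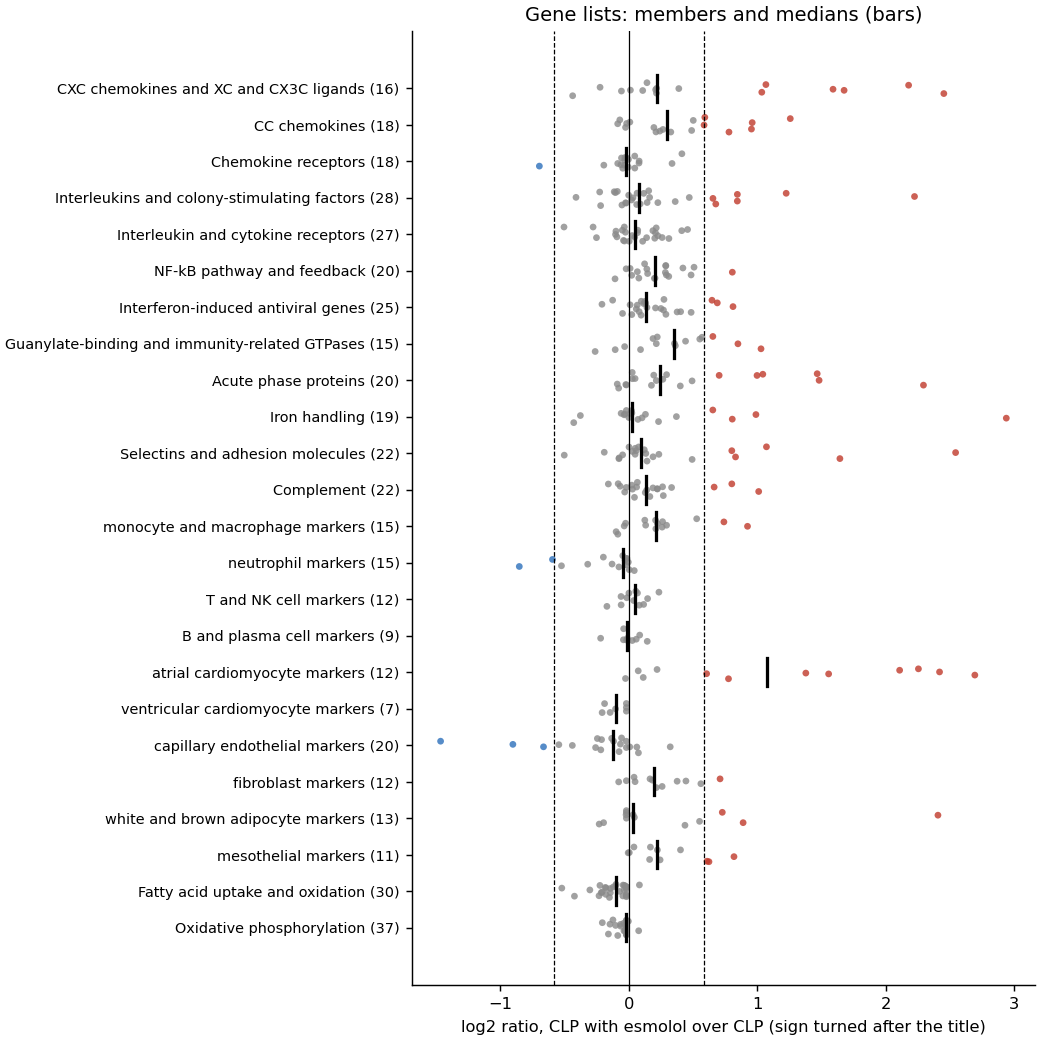
Log2 ratio of CLP hearts with esmolol over CLP hearts (x axis, sign turned after the title) for the measured members of 24 gene lists; each point is a gene, red and blue mark 1.5-fold or more, black bars are list medians and the number measured follows each name. The bar of the atrial list stands at 1.08, while those of chemokine receptors (-0.02) and of both lymphocyte lists (0.05 and -0.01) stand near 0. The oxidative phosphorylation bar (-0.02) stands on the repeated value, and 36 of its 37 genes lie below 0, 20 of them on that value alone.

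Acute phase genes encode plasma proteins that rise in infection, most of them made in liver and some in other tissues. Of 20 measured 6 were higher and none lower (median 0.24). These were the haemoglobin scavenger Hp (2.29), the serum amyloids Saa3 (1.48), Saa2 (1.47) and Saa1 (1.00), the glycoprotein Orm1 (1.04) and the pentraxin Ptx3 (0.70). The fibrinogen genes Fga (-0.02) and Fgb (-0.09), which hepatocytes express strongly, lay near 0. Hepatocyte markers as a whole had 0 of 8 past 1.5-fold and a median of -0.05, with Alb and Ttr blank. Lcn2, an iron-binding protein of neutrophils and inflamed tissue, stood at 0.19.

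Iron handling was represented by 19 measured genes, of which 4 were higher (median 0.02). Besides Hamp they were Hmox1 (0.99), which degrades heme, Slc11a1 (0.80), the iron exporter of phagosomes, and Trf (0.65), transferrin. Slc40a1, the iron exporter that hepcidin removes from the cell surface, was among the lowest (-0.38), as was Bmp6 (-0.43), an endothelial inducer of hepcidin. The uptake receptor Tfrc was at 0.10.

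Adhesion molecules carry leukocytes from rolling to firm arrest on endothelium. Of 22 measured 5 were higher and none lower (median 0.10). The selectins Sele (2.54) and Selp (1.64, probes at 1.40 and 1.88) mediate rolling, Vcam1 (1.07, probes at 0.92 and 1.22) and Icam1 (0.83, probes at 0.72 and 0.94) mediate arrest, and Itgam (0.80, probes at 0.71 and 0.89) is a leukocyte integrin chain. Of the list 17 members lay above 0, Cd34 (0.49) being the highest under the threshold. The 5 below 0 were Icam2 (-0.50), Jam2 (-0.19), Itga4 (-0.08), Pecam1 (-0.08) and F11r (-0.05). Of 21 coagulation genes 1 was higher, the endothelial protein C receptor gene Procr (0.65). Plat (0.57), the tissue plasminogen activator, was next and Thbs1 lowest (-0.47). Of 22 complement genes 3 were higher, Cfb (1.01), of the alternative pathway, Itgam and C1ra (0.66), of the classical pathway, and the median was 0.13.

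Capillary endothelial genes lay on the other side. Of 20 markers 3 were lower, none higher, and 16 lay below 0, 1 of them on the repeated value described below (median -0.13, and -0.21 over 19 genes without that value). Sox18 (-1.47, 2.76-fold), an endothelial transcription factor, was the lowest gene of the contrast. Rbp7 (-0.90, probes at -0.55 and -1.26), a retinol-binding protein of heart capillaries, and Adgrl4 (-0.66), an endothelial adhesion receptor, were the others. Btnl9 (-0.54) and Kdr (-0.44), the main VEGF receptor, stayed under the threshold. Cdh5 (0.06) and Pecam1, which define endothelium, were near 0, so the shift did not extend to every marker of the cell type. In the list of VEGF, angiopoietin and Notch genes Sox18 again was the 1 lower member and 19 of 26 lay below 0 (median -0.08), with Hey1 (-0.39) and Notch4 (-0.37) following Kdr. In contrast 8 of 9 markers of venous or activated endothelium lay above 0 (median 0.41). That list shares 4 genes with the adhesion list, Sele, Selp, Vcam1 and Icam1, and these are its members past 1.5-fold. Whether the share of endothelial cells differed between the hearts was not tested.

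Markers of leukocytes differed by cell type. Of 15 measured monocyte and macrophage markers 2 were higher and 11 lay above 0 (median 0.21). These were Adgre1 (0.92, probes at 0.84 and 1.01), which encodes the F4/80 antigen, and the lysozyme Lyz2 (0.74). Mrc1 (0.22) and Lyve1 (0.21), markers of resident macrophages, were smaller, Cd163 was at -0.10, and Ccr2 and Timd4 were blank. Further genes of myeloid cells were past 1.5-fold and were picked after their values were seen, among them the inhibitory receptors Siglece (1.13), Pilra (1.05) and Pirb (0.67), Clec4a3 (0.73) and the formyl peptide receptor Fpr2 (0.60). Neutrophil markers lay mostly below 0, in 13 of 15 (median -0.05). Retnlg (-0.85) and the calgranulin S100a8 (-0.59) were lower, and its partner S100a9 was at -0.52. The granule genes Mpo (-0.03), Elane (0.04) and Camp (-0.01) lay near 0. Lymphocyte markers were near 0 as well, with 0 of 12 T and NK cell markers and 0 of 9 B and plasma cell markers past 1.5-fold and medians of 0.05 and -0.01. Outside these lists the immunoglobulin variable segments Ighv6-6 (1.12) and Igkv10-96 (1.08) were higher, each by 1 measured probe. They too were picked after their values were seen.

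Among vasoactive genes the prostaglandin pathway had 4 of 22 higher and a median of -0.00085. The higher genes were the inducible synthase Ptgs2 (1.52), the prostaglandin E synthase Ptges (1.03), the prostacyclin synthase Ptgis (0.62) and the degrading enzyme Hpgd (1.16, probes at 0.75, 1.16 and 1.24). Ptgds, a prostaglandin D synthase, was lowest (-0.30). In the nitric oxide list 1 of 14 was higher, the arginine transporter Slc7a2 (0.89), while Nos2 (0.15), Nos3 (0.08) and Arg1 (0.08) were small. Of 16 endothelin, angiotensin and vascular tone genes 0 were past 1.5-fold, with Edn1, endothelin, highest (0.42).

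Atrial genes had the highest median of any list. Of 12 measured markers 8 were higher and none lower, and the median was 1.08. In order of size these were Bmp10 (2.69), Sln (2.42), the atrial regulator of the calcium pump, the atrial light chain Myl7 (2.25), Dkk3 (2.11), Myl4 (1.55, probes at 1.26 and 1.85), Mybphl (1.38), Nppa (0.78, probes at 0.54 and 1.01), the atrial natriuretic peptide, and Stard10 (0.60). The other 4, the transcription factors Tbx5 (0.22) and Nr2f2 (0.11), the growth factor gene Fgf12 (0.07) and the potassium channel gene Kcnj3 (-0.03), were under 1.5-fold. All 7 ventricular markers lay below 0, from Kcnip2 (-0.21) and Hey2 (-0.19) up to 3 genes on the repeated value described below (median -0.10, and -0.17 over the 4 genes without it). Sln was also the sole member of the 22 calcium handling genes past 1.5-fold, and Ryr2 (-0.01), the release channel, was near 0. Whether the samples held different shares of atrial tissue was not tested.

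Other tissue markers had a few large members each. Of 13 adipocyte markers 3 were higher, the brown fat uncoupling protein gene Ucp1 (2.40), the adipokine Adipoq (0.89) and Car3 (0.73, with its 2 probes apart), but Plin1 (0.04), Lep (0.03) and Cidea (-0.23) were not, and the median was 0.03. Of 11 mesothelial markers 3 were higher, Upk1b (0.82), the lubricin gene Prg4 (0.62) and Upk3b (0.61), 10 lay above 0 and the median was 0.22. Of 13 fast skeletal muscle markers 1 was higher, Myl1 (0.86), and the median was 0.05. Fibroblast markers lay above 0 in 10 of 12 (median 0.20), with Col3a1 past 1.5-fold (0.71, probes at 0.54 and 0.88) and Col1a1 at 0.56. Smooth muscle and pericyte, platelet and red cell, and nerve markers had 0 members past 1.5-fold and medians of -0.04, -0.0025 and 0.0033. How far adipose, pericardial or atrial tissue in the samples contributes to these values was not tested.

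Matrix lists had 1 to 3 members past the threshold each, where 0.819% of all genes were higher. Of 21 collagens 1 was higher, Col3a1, and 17 lay above 0 (median 0.06). Among 20 matrix proteases and inhibitors 3 were higher, the collagenase Mmp13 (0.74), the aggrecanase Adamts4 (0.70) and the inhibitor Timp1 (0.64, probes at 0.52 and 0.76). In the TGF-beta and BMP list 2 of 26 were higher, Bmp10 and Id2 (0.85), a target of BMP signalling with 2 probes at 0.85 and 0.86 and a further one at 0.18, while the related Id1 was at -0.43.

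Cardiac stress genes pointed both ways. Of 20 members of the stress and fetal list 3 were higher, Mybphl, Nppa and Nppb (0.60, probes at 0.49 and 0.72), the last being the B-type natriuretic peptide gene. The list held 2 lower genes, Abra (-0.87), an actin-linked activator of serum response factor, and Ccn2 (-0.67), a matricellular growth factor. Myh7, the slow myosin that marks the fetal program, was at -0.23 (probes at -0.20 and -0.27), and the skeletal actin gene Acta1 at 0.30. Of 21 ion channel genes 0 were past 1.5-fold, with Kcnj2, the inward rectifier, lowest (-0.46). Immediate early genes had 2 of 24 higher, Fosl1 (0.71) and Ier3 (0.60), and 1 lower, Btg2 (-0.59), with Egr1 at -0.44 and Fos at 0.28.

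For the pathway that esmolol acts on, 0 of 26 measured genes between adrenergic receptors and protein kinase A were past 1.5-fold (median 0.03). Of all genes 0.952% were past it, so a count of 0 does not set this list or those below apart. The receptor gene Adrb1 was not analysed here. Pde4b, a phosphodiesterase that cyclic AMP itself induces, was highest (0.50), and Pde3a, the main cardiac phosphodiesterase of its family, lowest (-0.32). Grk5, a kinase that silences activated receptors, was at -0.24, Adcy5 and Adcy6, the cardiac adenylyl cyclases, at 0.15 and -0.03, and the catalytic subunit Prkaca at 0.04. Of 13 RGS genes, which shorten G protein signals, 0 were past 1.5-fold, with Rgs2 lowest (-0.35). Glucocorticoid-responsive genes had 0 of 15 past 1.5-fold and 11 below 0 (median -0.06), among them Fkbp5 (-0.26) and Per1 (-0.22). Clock genes had 0 of 17 past 1.5-fold and a median of 0.04, with Bhlhe40 (0.52) and Arntl (-0.39) at the ends.

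Fatty acid oxidation supplies most of the energy of the adult heart. Of its 30 measured genes 0 were past 1.5-fold, yet 29 lay below 0 (median -0.10), 5 of them on the repeated value described below, where 52.1% of all genes did. Acot1 (-0.52), a thioesterase, Mlycd (-0.42), which removes an inhibitor of fatty acid import, and Ppargc1a (-0.30, probes at -0.27 and -0.34), a coactivator of mitochondrial genes, were lowest. Hadha (-0.22) and Acadl (-0.18), enzymes of the oxidation spiral, and Cpt1b (-0.15), the import step of muscle, were examples of small values on the same side, and Cpt1a (0.08) was the member above 0. Ehhadh (-0.62), a peroxisomal enzyme of fatty acid oxidation, was among the 23 lower genes but not in the list. Of 27 glucose genes 0 were past 1.5-fold, with Gys1, glycogen synthase, at -0.24 and the lactate transporter Slc16a3 at 0.27. Heat shock, hypoxia, apoptosis, atrophy and cell cycle lists had 0 members past 1.5-fold and medians between -0.04 and 0.03. Their ends were Egln3 (-0.52), a prolyl hydroxylase, and Hif1a (0.44), whose protein it marks for destruction.

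A single exact value stood at 538 probes, 1.61% of those measured, and is given apart. It was -0.0196 after the sign was turned, and the next most frequent value stood at 26 probes. Of these probes 407 named 1 gene and 131 were unnamed here. All measured probes of 192 genes lay on it, 1.11% of genes, and some probes of another 155. Genes on it were common among abundant heart transcripts, with 20 of 37 oxidative phosphorylation genes, 9 of 19 sarcomere genes, 7 of 18 genes of the tricarboxylic acid cycle and 5 of 30 fatty acid genes. The sarcomere genes included Myh6, the main adult myosin, with both probes, Actc1, cardiac actin, and Tnnc1, cardiac troponin C. Of 12 genes that define heart muscle all had a value, and 4 had it alone. By symbol, the value covered 9 of 25 genes starting with Cox (36%), 12 of 43 with Nduf (27.9%) and 6 of 79 with Rpl or Rps (7.59%). It also covered 11 of 322 zinc finger genes named Zfp (3.42%). Of 608 olfactory receptor genes it covered 2 (0.329%), under the share of all genes. Of the 538 probes 396 (73.6%) stood on the repeated value of the LPS contrast and 330 (61.3%) on that of the non-septic contrast, 282 on both. What set the value is not given in the sources used here, and a ratio near 0 at these probes does not show equal expression. The other 240 probes of genes partly on it ranged from -0.64 to 0.74 with a median of 0.00075. Without the value the median of 10 remaining sarcomere genes was -0.12, of 25 fatty acid genes -0.14 and of 17 oxidative phosphorylation genes -0.06. The table gives ratios and no intensities, so the tissue could not be checked by the level of its markers.

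**Figure D4:**
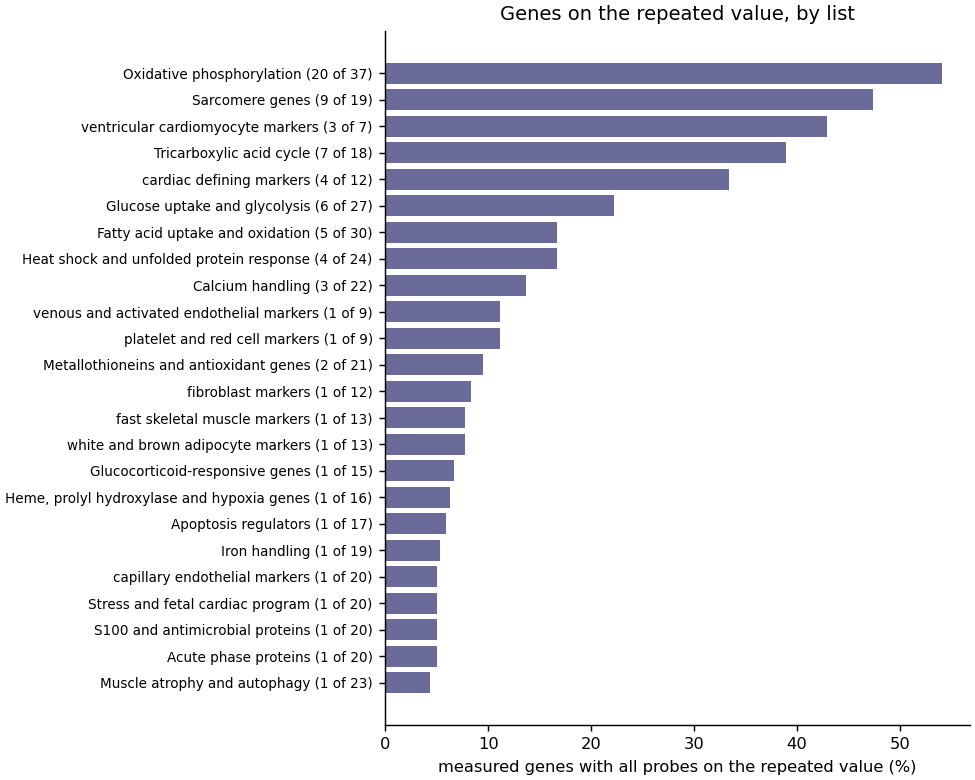
Share of measured genes of each list whose probes all stand on the single repeated value of the CLP contrast (x axis, percent), for the lists that hold any such gene, with the counts after each name. Oxidative phosphorylation (20 of 37) and sarcomere genes (9 of 19) have the longest bars.

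Among the 23 lower genes, 22 met the rule for naming, and the exception was Resf1 (-0.59), which has 1 of 3 probes on the repeated value. Besides the endothelial, neutrophil and stress genes above, they included Trmt5 (-0.85), a transfer RNA methyltransferase, Depp1 (-0.77), a target of FoxO factors, Tcim (-0.72, both probes at that value) and Shld1 (-0.70), part of a DNA repair complex. Pdgfb (-0.65, probes at -0.63 and -0.67), an endothelial growth factor that recruits pericytes, Fut4 (-0.64), which builds carbohydrate ligands of selectins, and Slc9a3r2 (-0.62), a scaffold protein, followed. Lgals4 (-0.60), Kcnk1 (-0.60), a potassium channel gene, Asb2 (-0.60), a ubiquitin ligase subunit, Thbs2 (-0.59), a matrix protein, and Hsd17b11 (-0.59, probes at -0.29, -0.59 and -0.61) were closest to the threshold. They formed no single function: 9 genes of the lists used here were lower, in 7 lists.

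Many higher genes are neighbours on the chromosomes. With the measured genes put in RefSeq order, 39 of the 142 higher genes (27.5%) had another higher gene within 3 measured genes on either side, whereas 4.36% of all ordered genes lay that close to one. They formed 16 runs. The longest held 4 genes each and were Ccl2, Ccl7, Ccl11 and Ccl12 on chromosome 11, Ccl3, Ccl4, Wfdc17 and Wfdc18 on the same chromosome, and Cxcl5, Cxcl3, Cxcl2 and the growth factor gene Ereg on chromosome 5. Saa3, Saa1 and Saa2 on chromosome 7 made a run of 3. Pairs included Sele with Selp on chromosome 1, Cxcl9 with Cxcl10 on chromosome 5, Il1a with Il1b on chromosome 2, Gbp2 with Gbp3 on chromosome 3 and Nppa with Nppb on chromosome 4. Most runs are families that arose by duplication, and near-identical copies such as Saa1 and Saa2 or Lyz1 and Lyz2 may share probe signal. None of the 23 lower genes had a lower neighbour, but only 0.782% of all ordered genes lay that close to a lower gene. With so few lower genes this count says little.

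Promoters were searched for 9 short motifs, on both strands, in the RefSeq windows of 250 bases before to 50 after the start site (build GRCm38.p6), which were found for 102 of the 142 higher genes and 13856 genes in all. The NF-kB motif, of 10 letters with 1 of them free, was held by 4 of 102 (3.92%), against 0.534% of all. The interferon-stimulated response element was held by 13 (12.7%), against 3.77%, among them Cxcl10, Gbp2, Ifit1 and Stat2. The AP-1 motif TGANTCA was held by 17 (16.7% against 7.60%) and the TATA box TATAAA by 25 (24.5% against 12.5%). Shares were 11.8% against 8.82% for the STAT motif TTCNNNGAA and 4.90% against 3.08% for a glucocorticoid response element. They were 7.84% against 10.1% for the E-box CACGTG and 0.980% against 2.93% for the cyclic AMP response element TGACGTCA. The MEF2 motif was at 1.96% against 1.85%. Matches of different motifs overlapped in none of the higher genes. Of the lower genes 18 had a window, and none held the NF-kB, interferon or STAT motif. The cyclic AMP response element was held by 2 of them (11.1%), the TATA box by 3 (16.7%) and each of the other 4 motifs by 1 (5.56%). A match is a run of letters and not a shown binding site, and the runs of duplicated genes above make these promoters partly alike. The upstream 250 bases of the 4 higher genes with an NF-kB match are shown because they place it beside the cytokine and chemokine values, with the match in capitals and the strand of the gene. The sequences are from RefSeq, 5′ to 3′. They are Il6 (1.22) at chr5:30012864-30013113 on the plus strand, Cxcl3 (1.07) at chr5:90785851-90786100 on the plus strand, Cxcl2 (1.03) at chr5:90903649-90903898 on the plus strand and Csf1 (0.65) at chr3:107760470-107760719 on the minus strand.
Il6: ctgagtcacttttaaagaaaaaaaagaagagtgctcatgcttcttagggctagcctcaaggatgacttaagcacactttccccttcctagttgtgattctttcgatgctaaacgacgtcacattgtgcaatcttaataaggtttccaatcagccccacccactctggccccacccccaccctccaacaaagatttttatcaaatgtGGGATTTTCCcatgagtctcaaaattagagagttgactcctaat
Cxcl3: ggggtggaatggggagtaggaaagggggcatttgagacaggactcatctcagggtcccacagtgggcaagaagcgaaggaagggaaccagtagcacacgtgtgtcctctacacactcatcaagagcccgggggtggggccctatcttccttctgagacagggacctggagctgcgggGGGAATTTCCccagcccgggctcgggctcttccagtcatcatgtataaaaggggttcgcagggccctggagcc
Cxcl2: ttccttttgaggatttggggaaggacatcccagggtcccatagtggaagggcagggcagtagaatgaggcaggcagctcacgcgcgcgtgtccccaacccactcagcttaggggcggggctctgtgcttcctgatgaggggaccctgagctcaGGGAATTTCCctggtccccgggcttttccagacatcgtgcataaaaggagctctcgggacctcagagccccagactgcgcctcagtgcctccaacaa
Csf1: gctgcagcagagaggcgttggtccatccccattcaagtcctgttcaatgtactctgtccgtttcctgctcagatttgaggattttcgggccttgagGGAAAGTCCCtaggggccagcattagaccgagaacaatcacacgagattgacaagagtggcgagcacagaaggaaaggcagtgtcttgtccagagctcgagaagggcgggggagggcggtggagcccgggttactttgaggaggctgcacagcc
The match begins 44 bases before the start site in Il6, 73 in Cxcl3, 97 in Cxcl2 and 154 in Csf1, where it lies on the opposite strand. In Cxcl3 and Cxcl2, neighbours in the same run, it is the same 10 letters.

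The same genes were read in the other contrasts, whose undrugged groups are, per the labels, not the CLP group. In LPS hearts 113 of the 142 genes higher in CLP lay below 0 (79.6%, against 49.7% of all genes measured in CLP), with a median of -0.31. The 113 include Saa3 and Nppb, whose LPS probes all stood on the repeated value of that contrast (-0.043). Of the 142 genes 42 were lower in LPS hearts by 1.5-fold or more and 6 were higher. The background in the LPS contrast was 2.26% lower and 2.06% higher, 4.32% in all. Its values also spread more widely, with a pooled SD between probes of 1 gene of 0.24, against 0.10 in CLP. Of its 660 olfactory receptor genes 42 (6.36%) were past 1.5-fold, against 0.164% in CLP. Single values in LPS hearts are therefore less firm. In non-septic hearts 81 of 137 lay below 0 (59.1%, against 49.4%) with a median of -0.07, where 13 were lower and 5 higher (background 0.241% and 0.219%, 0.460% in all). If the CLP sign were not turned, these 113 would lie on the same side of 0 in both septic models and the other 29 would not.

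The gene groups differed in how they lay across contrasts. Atrial markers were above 0 in CLP hearts (median 1.08), below 0 in LPS hearts (median -0.52, with 6 of 12 lower) and above 0 in non-septic hearts (0.35, with 5 of 12 higher). Myl7, for example, stood at 2.25, -1.23 and 0.68 in CLP, LPS and non-septic hearts. Guanylate-binding proteins and related GTPases stood at medians of 0.35, -0.93 and -0.20, with 13 of 15 lower in LPS hearts. CXC chemokines stood at 0.22, -0.45 and -0.16, and Cxcl5 at 2.18, -0.58 and -2.88. Capillary endothelial markers were below 0 in CLP hearts (-0.13) and above 0 in LPS hearts (0.25, with 6 of 20 higher), with a median of 0.01 in non-septic hearts. Sox18 stood at -1.47, 1.44 and -0.01. CC chemokines did not follow that pattern so clearly, at 0.30, -0.05 and -0.03, and Ccl12 was above 0 in both septic models (1.26 and 0.65). Monocyte and macrophage markers were above 0 in all, at 0.21, 0.13 and 0.12, with Adgre1 at 0.92, 0.54 and -0.08. With 1 merged value per contrast, none of these differences was tested.

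**Figure D5:**
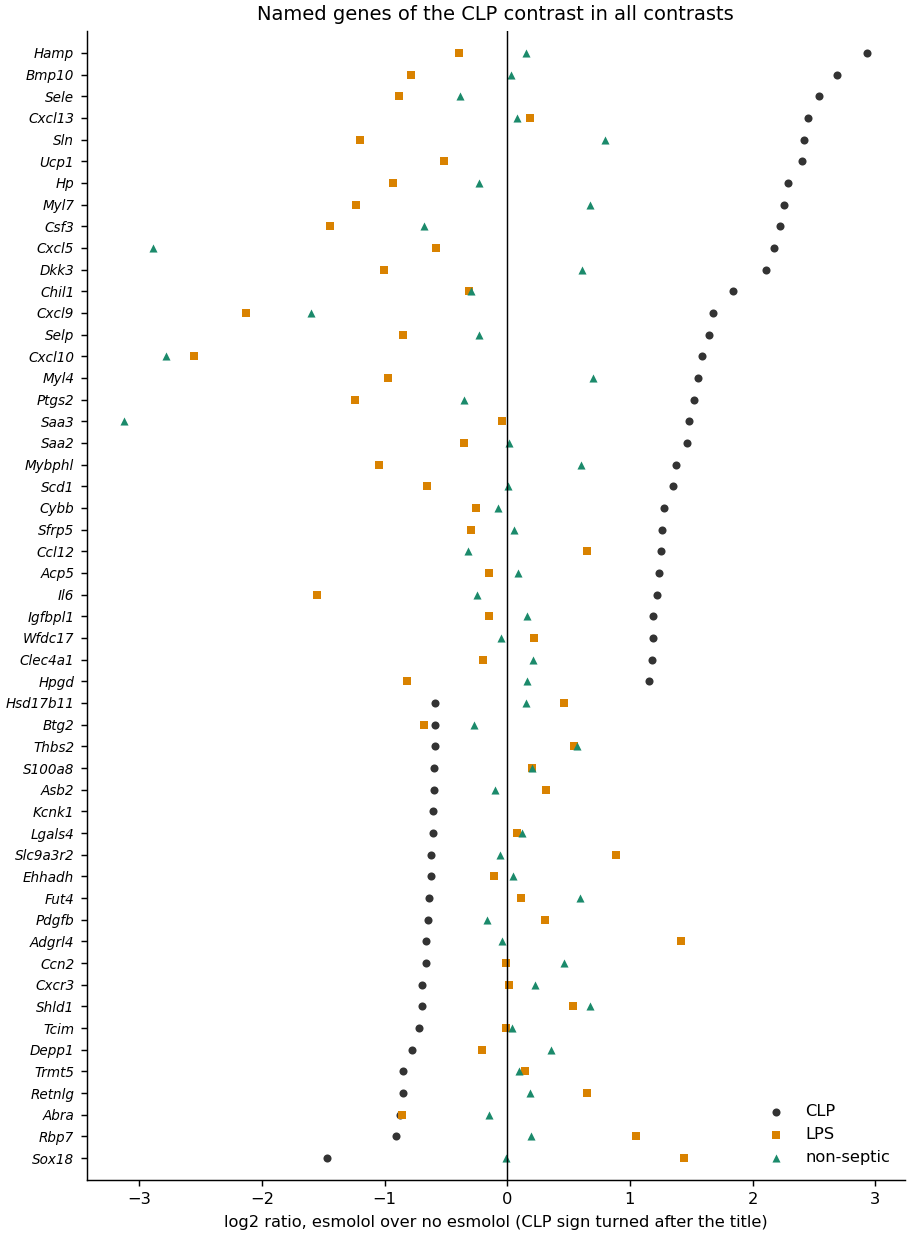
Log2 ratio with esmolol over without (x axis) of the 30 highest and 22 lower genes of the CLP contrast, with circles for CLP hearts (sign turned after the title), squares for LPS hearts and triangles for non-septic hearts. Most of the 30 highest genes, among them Cxcl9 (-2.13 in LPS hearts) and Myl7 (-1.23), have their square left of 0.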

How the data were processed

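RNA of mouse heart was hybridized on 2-colour microarrays with Agilent probe names. Per the labels, the authors merged 4 replicates over dye swaps into 1 value per probe, and these deposited values were read here as log2 ratios. The base is an assumption, and the sources used here name no scanner, background correction, normalization or centring. The deposited columns had medians of 0.0072 (CLP), 0.0083 (LPS) and 0.0044 (non-septic) and values on both sides of 0. In the CLP column 18.6% of 41174 probes were blank.

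Of the probes 32664 carried 1 gene in the platform annotation. Not used by gene were 45 with several names and 8465 with none in that annotation. Symbols were updated by gene ID to RefSeq GRCm38.p6, which matched 32524 single-gene probes. The sign of the CLP column was turned, and probes of a gene were collapsed by the median (Python 3.11.15, pandas 2.3.3). Genes were counted from 1.5-fold on. The collapse and the counting were tested on simulated data with planted shifts well past the threshold and no repeated value. That checks the code and not how firm the counts are.

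The members and the 65 gene lists, 48 of functions and 17 of cell type markers, were chosen with earlier results of these data known, and the lists are described by counts and medians. Named genes are the 30 highest and all lower genes with no predicted, clone or olfactory receptor name, all probes on the same side of 0 and none on the repeated value, and list members past 1.5-fold, at the ends of a list or with a role that is explained. List members without a probe of their own in the annotation used are not analysed here.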

Additional observations from a re-analysis of the deposited data

Results flagged for a closer look

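Genes past 1.5-fold in both septic models, on opposite sides of 0, numbered 42 that were higher in CLP and lower in LPS hearts (29.6% of the higher CLP genes and 10.5% of the lower LPS genes). A further 5 were lower in CLP and higher in LPS hearts (21.7% and 1.37%). Of all genes measured in CLP, 2.24% were lower and 2.07% higher in LPS hearts by 1.5-fold or more. On the same side of 0 in both, 6 genes were higher (4.23% of the higher CLP genes) and 2 lower (8.70% of the lower ones). The 42 and the 5 were picked out because the 2 contrasts move in opposite ways for them under the same drug. The difference was not tested, each contrast being 1 merged value, and these genes lie on the same side in both if the CLP values do not follow their title.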

How the results depend on the processing

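The counts of 142 higher and 23 lower genes stayed within 1.5 times under the mean of the probes, the probe nearest 0, the repeated value left out and centring on the median of all probes, with ranges of 119 to 145 and 18 to 23. They became 43 and 1 at 2-fold, 303 and 94 if the values are natural logarithms, and 43 and 7 among genes with 2 or more probes on the same side of 0. With the sign as deposited they swap to 23 higher and 142 lower, by construction. The 90 list members past 1.5-fold stayed between 89 and 90. Of 65 list medians, 2 moved by more than the SD between probes, both without the repeated value: venous and activated endothelium from 0.41 to 0.62 and sarcomere genes from -0.02 to -0.12. Medians near 0 changed sign in 3 lists after centring, immediate early genes (-0.006 to 0.0013), prostaglandins (-0.00085 to 0.0064) and platelet and red cell markers (-0.0025 to 0.0047). They did so in 2 lists without the repeated value, glucose genes (-0.02 to 0.05) and platelet and red cell markers (to 0.0013). With the probe nearest 0, 4 of 52 named genes fell under 1.5-fold. All were lower genes: Rbp7 (-0.55), Lgals4 (-0.44), Btg2 (-0.44) and Hsd17b11 (-0.29). None could change sign, because the rule for naming required all probes on the same side of 0. No paired analysis was possible because each contrast holds 1 merged value. Replicates could not be left out for the same reason, and signal over background was not analysed here.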

Other observations

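Probes without a gene name here also held large values. Of 5642 with a value in the CLP contrast 20 were higher by 1.5-fold or more and 9 lower, with ends of 2.12 and -1.30. Of the genes on the array 2193 were blank in the CLP contrast, of which 359 had a value in both other contrasts.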
